A study of Mus musculus with 48 samples.

Results

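The 1033 genes described here are the antisense genes of the GENCODE M21 annotation that carry only a placeholder symbol, starting with Gm or ending in Rik, and that reached a mean of at least 10 raw counts over the 48 libraries, Gm11973 left aside. They were chosen by their counts, so that being well counted is a description of them and not a result. They are 49.03% of the 2107 unnamed antisense genes in the count table and 18.3% of the 5644 genes that reached the same mean count and were tested. Of the 1033, 791 have a Gm symbol and 242 a Rik symbol. At the limit, Gm10634 and Gm16058 had a mean of 10 counts and were kept, and Gm2670 with 9.98 and 4933421D24Rik with 9.96 were not.

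The libraries came from the amygdala of 48 male C57BL/6 mice aged 4 months, 8 in each of 6 groups, of a line bred on C57BL/6N per the methods of the study. Mice were Tph2+/+, Tph2+/- or Tph2-/- offspring of heterozygous parents, where Tph2 encodes the enzyme that limits serotonin synthesis in the brain and is inactivated throughout the body. In each genotype, 8 mice had been separated from the dam for 3 h per day from postnatal day 2 to postnatal day 15 (maternal separation, MS) and 8 had not (C). All mice, C and MS alike, were single-housed after weaning and went through behavioural tests before the tissue was taken, and both hemispheres of a mouse were blended. The labels do not give the litters, so that p-values measure the spread between mice, litter mates perhaps among them. Tph2 itself had 2 counts in all 48 libraries together, and does not check the genotypes; its mRNA is made mainly by cells of the raphe.

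An antisense gene is transcribed from the DNA strand opposite to another gene, so that its RNA can be complementary to part of the RNA of that gene. Some such RNAs start beside the promoter of the opposite gene, others run into its end, and they are known in brain for genes of many functions. Most have no assigned function, and a Gm or Rik symbol says only that a transcript was annotated from cDNA or gene models.

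The libraries were made with a strand-marking total RNA kit, yet reads assigned to no gene made up a median of 97.5% in the table (75.8% to 97.6%), and the counts on genes ranged from 609489 to 6296568 with a median of 738490. Protein-coding genes had a median mean of 0.708 counts and 14.2% of them reached a mean of 10 counts. Many markers of the tissue were low as well: the 8 neuronal markers had a median mean of 2.93 counts, the 6 astrocyte markers 5.86 the 6 oligodendrocyte markers 13.9 the 6 microglial markers 5.73, the 6 choroid plexus markers 0.396 and the 5 endothelial markers 0.479. Single markers were higher, among them Cnp of oligodendrocytes with a mean of 407 counts, Csf1r of microglia with 135 and Kcnj13 of choroid plexus with 82.5. The strand setting of the counting is not given in the sources used here. In 93.4% of the pairs described below the antisense gene had a higher mean count than the gene opposite to it. Whether the reads of an antisense gene came from its own strand or from the opposite strand was not tested. All levels and differences below are those of the reads assigned to the antisense gene, and need not be those of antisense RNA.

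Stretches of exon of 6 of these genes are shown first, to show how an exon can lie opposite to coding exon; all 6 genes are described below or are among those with the highest levels. Each is written 5′ to 3′ on the strand of the antisense gene in GRCm38, from the GENCODE transcript sequence, with the bases that lie opposite to coding exon of the other gene in capitals. The opposite genes are, in order, Resp18, Ptprn, Atpif1, Fras1, March1 and Frmd4a.
Gm28902, chr1:75275573-75275652, plus strand: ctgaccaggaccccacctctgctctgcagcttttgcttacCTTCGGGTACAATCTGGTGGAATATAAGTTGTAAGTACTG
Gm28294, chr1:75257227-75257426, plus strand: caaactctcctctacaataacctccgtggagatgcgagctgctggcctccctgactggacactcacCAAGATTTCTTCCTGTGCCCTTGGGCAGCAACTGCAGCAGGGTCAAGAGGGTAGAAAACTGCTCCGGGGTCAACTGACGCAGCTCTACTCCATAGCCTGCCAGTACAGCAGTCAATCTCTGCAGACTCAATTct
Gm12999, chr4:132533489-132533568, plus strand: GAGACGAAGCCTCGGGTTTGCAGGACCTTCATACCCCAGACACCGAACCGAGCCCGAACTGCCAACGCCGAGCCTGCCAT
Gm42604, chr5:96739165-96739364, minus strand: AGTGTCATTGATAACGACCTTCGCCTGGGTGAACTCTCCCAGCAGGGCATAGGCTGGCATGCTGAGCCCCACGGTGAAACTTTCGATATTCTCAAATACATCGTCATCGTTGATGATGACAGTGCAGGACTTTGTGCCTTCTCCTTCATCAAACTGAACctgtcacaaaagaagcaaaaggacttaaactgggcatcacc
Gm15354, chr8:66387163-66387362, minus strand: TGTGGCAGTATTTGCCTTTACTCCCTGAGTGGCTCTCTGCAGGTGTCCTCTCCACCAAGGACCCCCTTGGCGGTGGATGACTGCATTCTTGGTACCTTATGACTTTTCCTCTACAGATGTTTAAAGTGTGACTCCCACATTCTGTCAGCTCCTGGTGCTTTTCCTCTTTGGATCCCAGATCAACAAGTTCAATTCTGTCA
Gm13179, chr2:4586331-4586530, minus strand: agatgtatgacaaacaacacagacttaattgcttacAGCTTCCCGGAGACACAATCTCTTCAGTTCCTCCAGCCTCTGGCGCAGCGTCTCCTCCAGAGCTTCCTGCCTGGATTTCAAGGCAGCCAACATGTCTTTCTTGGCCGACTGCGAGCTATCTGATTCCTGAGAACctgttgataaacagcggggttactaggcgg
The next 3 stretches belong to genes called at a nominal p in the comparisons below, none with an adjusted p below 0.05 in edgeR. Gm26571 covers the start of Riox1 and Gm35065 that of Prss12, both with coding bases opposite, and these stretches hold 79.0% and 75.2% G and C bases, with 33 and 19 CG dinucleotides. The stretch of Gm44012, which has no exon opposite to another gene, holds 38.5% G and C bases and 3 CG dinucleotides.
Gm26571, chr12:83950924-83951123, minus strand: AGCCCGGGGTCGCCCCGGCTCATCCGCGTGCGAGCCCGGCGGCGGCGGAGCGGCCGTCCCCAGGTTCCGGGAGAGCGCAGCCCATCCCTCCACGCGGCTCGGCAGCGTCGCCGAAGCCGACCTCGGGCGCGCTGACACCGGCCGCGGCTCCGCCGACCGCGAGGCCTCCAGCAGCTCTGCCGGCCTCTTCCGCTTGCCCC
Gm35065, chr3:123447291-123447447, minus strand: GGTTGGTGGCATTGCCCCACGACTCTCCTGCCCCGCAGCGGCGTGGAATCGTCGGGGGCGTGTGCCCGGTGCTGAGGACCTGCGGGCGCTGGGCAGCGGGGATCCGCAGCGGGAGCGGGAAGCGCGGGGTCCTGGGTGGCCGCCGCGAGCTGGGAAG
Gm44012, chr6:84924794-84924993, plus strand: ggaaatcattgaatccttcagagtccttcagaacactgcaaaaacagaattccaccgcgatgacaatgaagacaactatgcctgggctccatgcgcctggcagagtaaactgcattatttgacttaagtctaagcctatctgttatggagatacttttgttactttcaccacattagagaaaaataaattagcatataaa

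The unnamed antisense genes were measured in nearly every library. Of the 1033, 1027 had at least 1 count in all 48 libraries and 969 had a mean of at least 10 counts in every group. Their mean counts had a median of 48.1 and reached 5141. A mean of at least 100 counts was reached by 303 genes, of at least 500 by 46 and of at least 1000 by 13. Without its highest library, the mean of 12 of them would lie under 10. Together they held a median of 18.99% of the gene counts of a library once Lars2 and Gm42418 were left out, from 16.4% to 20.7%, and the group medians of this share lay between 18.7% in Tph2-/- C and 19.2% in Tph2+/- C.

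Levels can be compared between genes only per length of exon. Mean counts per kb of exon had a median of 44.4 over the 1033 genes and ran from 0.945 to 4686. The 8 genes with the highest values all lay opposite to exons of protein-coding genes. Gm28221, opposite to Ncald, which encodes the neuronal calcium sensor neurocalcin delta, had 4686 counts per kb. Gm28902, opposite to Resp18, a gene of dense-core granules, followed with 4178, and Gm14703, opposite to Syp, which encodes the synaptic vesicle protein synaptophysin, with 2825. The others were Gm12841 (Atp6v0b, a subunit of the vacuolar proton pump), Gm12999 (Atpif1, the inhibitor of the mitochondrial ATP synthase), Gm33051 (Rpl22l1, a ribosomal protein paralog), Gm28364 (Aamp) and Gm28294 (Ptprn, a protein of secretory granules), with values between 1866 and 2641 counts per kb.

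Gm14703 (chrX:7651106-7657258, minus strand) had the highest raw counts of all. Its counts ranged from 2548 to 7818 over the 48 libraries with a median of 5112, and its group means lay between 4512 ± 819 (SD, n = 8) in Tph2+/+ C and 5457 ± 1036 (SD, n = 8) in Tph2-/- MS. Syp, the gene on the other strand, had a mean of 13.5 counts. Gm28221 (chr15:37367205-37368498, plus strand) ranged from 887 to 2402 counts, and Ncald, opposite to all 347 bases of its exons, had a mean of 2.92. Gm12999 (chr4:132532687-132533601, plus strand), whose exons also lie wholly opposite to exons of Atpif1, ranged from 705 to 1936 counts, against a mean of 2.46 for Atpif1. For each of these genes the lowest of the 48 libraries lay far above the mean of the opposite gene. Pairs with markers of astrocytes had the same order: Gm13872, opposite to the astrocyte glutamate transporter Slc1a2, had a mean of 2337 counts against 44.7, and Gm15756, opposite to Aldh1l1, had 82.0 against 0.375.

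Exons opposite to exons of another gene were found for 773 of the 1033 genes (74.8%), and for 739 with at least 50 bases. In 743 of them the gene with most opposite bases was protein-coding. The genes with most bases opposite to these 773 were 756 distinct genes, and 96 of the 773 lay opposite to more than 1 gene. The 773 had a median of 311 opposite bases, and 41 lay opposite with all of their exon bases. The opposite bases included coding bases in 570 and lay outside the coding part in 173. Of the 260 genes with no opposite exon, 258 had a span that overlapped the span of a gene on the other strand. Exons shared with a gene on the same strand, whose reads can be split, were found in 12.

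Levels were higher with a larger share of exon that lies opposite to another exon. The 260 genes with no opposite exon had a median of 27.2 counts per kb (quartiles 16.9 and 49.1). The 135 genes with under 10% of their exon bases opposite had a median of 31.9, the 439 with 10% to under 50% had 48.5, and those with 50% to under 100% had 103.8 (quartiles 48.4 and 253). The 41 genes that were wholly opposite had quartiles of 103.2 and 504 counts per kb. This is a description across genes, which are not replicates. The limit of 10 counts entered too: 62.1% of the 1245 unnamed antisense genes with opposite exons reached it and 30.2% of the 862 without.

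**Figure D1:**
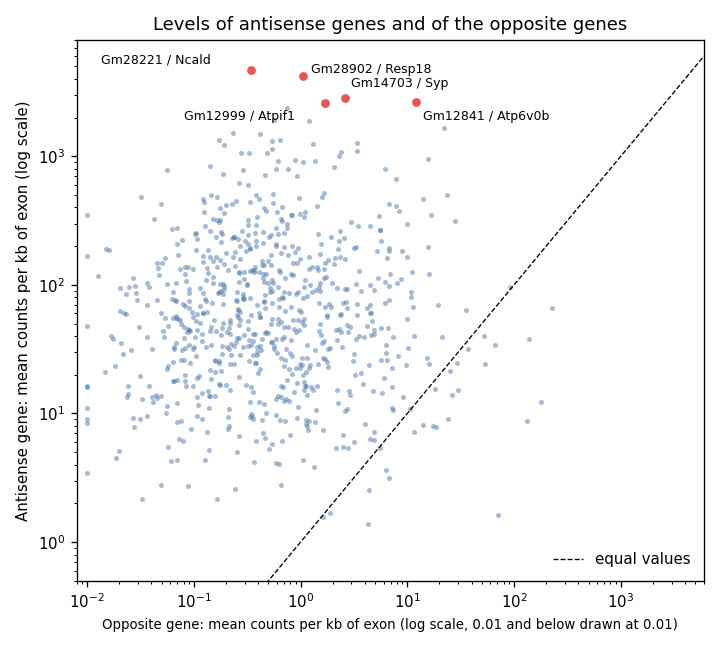
Mean counts per kb of exon of each unnamed antisense gene against the gene with most exon bases opposite to it, both on log axes, 1 point per pair and 5 pairs with the highest levels in red. Of the 767 pairs, 741 lie above the dashed line of equal values.

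The antisense gene had the higher mean count in 716 of the 767 pairs in which both genes are in the table (93.4%), and the higher value per kb in 741 (96.6%). The opposite genes had a median mean of 2.68 counts. In 51 pairs the opposite gene had the higher mean. The highest of these opposite genes was Lrrc40 with a mean of 638 counts, against 78.5 for B230334C09Rik. Bace1, which encodes the beta-secretase, had a mean of 587 counts and its antisense gene Gm16536 154, although per kb they were close, at 92.4 for Bace1 and 97.1 for Gm16536.

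The genes with the most bases opposite were not those with the highest levels. A630072M18Rik lay opposite to Rsbn1l with 5142 of its 5410 exon bases and had a mean of 17.1 counts, and Rsbn1l had 85.8. 1110002L01Rik, opposite to 2617 bases of the kinesin gene Kif3c, had a mean of 820 counts and Kif3c had 115. Gm12758 had 2696 bases opposite to another Rik gene, 4931406P16Rik, and a mean of 235 counts, and Gm9917 had 2496 bases opposite to the tumour suppressor gene Rassf1 and a mean of 358. Among the genes with no opposite exon, the highest means were those of Gm15564 (579 counts), Gm16185 (499), Gm28370 (320) and Gm13389 (289). Per kb these came to 705, 155.5, 94.7 and 452. The mean of Gm15564 was raised by 4 libraries with 1127 to 6715 counts, and its median of 285 counts lay below the medians of Gm16185 (504) and Gm28370 (323.5).

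Over the 48 libraries, an antisense gene and its opposite gene were little related. In the pairs with a mean of at least 10 counts in both, Spearman's rank correlation of the CPM values had a median of 0.06 (quartiles -0.06 and 0.17). CPM here are counts per megaread of library size, scaled by the trimmed mean of M-values. The points of a pair share the library and its depth. The coefficient exceeded 0.5 in 5 pairs, the highest being Gm11175 with the transcription factor gene Jund (0.81) and Gm16794 with the checkpoint kinase gene Atr (0.62). It was lowest for Gm10558 with Map2, which encodes a dendritic microtubule protein (-0.46).

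By the function of the opposite gene, levels differed in rank but with wide spread. The 23 genes opposite to genes of synapse and membrane traffic had a median of 155 counts per kb and the 20 opposite to genes of chromatin and RNA processing had 192.5. The 25 opposite to solute carriers and ATPases had 100.8, the 28 opposite to genes of cytoskeleton and adhesion 84.9, the 47 opposite to kinases, phosphatases and G proteins 77.6 and the 17 opposite to genes of mitochondria and metabolism 76.8. The lowest medians were those opposite to ion channels and neurotransmitter receptors (44.05, 26 genes) and transcription factors (41.9, 37 genes). All 773 genes with an opposite exon had a median of 56.5 counts per kb. Classes were made from symbols, and 557 of the 773 genes with an opposite exon fell into none.

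The 6 groups differed little in most of these genes. The highest group mean of CPM was a median of 1.19 times the lowest, and it was over 2 times the lowest in 11. The coefficient of variation over the 48 libraries had a median of 21.1% in all 1033 genes and of 12.5% in the 303 with a mean of at least 100 counts. It exceeded 100% in 3 genes.

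In edgeR's quasi-likelihood F test of all differences between the 6 groups, 31 of the 1033 genes (3.00%) were nominally significant (p below 0.01), against 2.32% of all genes tested. After Benjamini-Hochberg adjustment over the 5644 genes, none of the 1033 had an adjusted p below 0.05, 80 (7.74%) had an unadjusted p below 0.05 beside 6.93% of all genes tested, and DESeq2 gave none either. The smallest adjusted p was 0.12. Among all genes tested 4 (0.0709%) had an adjusted p below 0.05. In tissue homogenate, fewer cells of a type and less RNA per cell cannot be told apart in any of these differences. The 8 genes with the smallest p were Gm15564, Gm42604, Gm43137, Gm35065, 9430041J12Rik, 4732440D04Rik, Gm26571 and 0610038B21Rik. Without 7 control mice of all 3 genotypes, those with the highest animal numbers among the controls, 6 of the 1033 genes were called, and the p of Gm35065, 9430041J12Rik, 4732440D04Rik, Gm26571 and 0610038B21Rik lay between 0.0126 and 0.0347.

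Gm15564 (chr16:35966752-35983230, minus strand) led the list through single libraries. In Tph2+/+ C its CPM ran from 267 with a median of 305 to 17662, and in Tph2+/- C from 280 with a median of 397 to 13355. In Tph2-/- C it ran from 334 to 2038, and in Tph2+/+ MS from 297 to 1438. In the other groups no library exceeded 527 CPM. The 4 high values came from those 4 libraries in which Gm42418 exceeded 500000 counts, a gene that held 37.4% to 73.3% of their gene counts. In the other 44 libraries Gm15564 lay between 193 and 567.97 CPM, and without those 4 libraries its p over the 6 groups was 0.606 in place of 0.000186. Its call rests on them.

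Gm42604 (chr5:96735547-96739364, minus strand), opposite to Fras1, which encodes an extracellular matrix protein, had its lowest medians in the wildtype groups. Its CPM ran from 20.8 with a median of 28.1 to 33.0 in Tph2+/+ C and from 22.8 with a median of 27.8 to 46.997 in the MS wildtype group. The medians were 38.98 and 40.8 in Tph2+/- C and MS and 37.7 and 43.99 in Tph2-/- C and MS, with a highest value of 63.9. The groups overlapped, but both Tph2+/+ medians lay under all the others. Its lg2FC was 0.55 ± 0.15 (SE) in Tph2-/- MS against Tph2+/+ MS (edgeR, adjusted p = 0.403) and 0.48 ± 0.16 (SE) in Tph2+/- C against Tph2+/+ C (edgeR, adjusted p = 0.364).

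**Figure D2:**
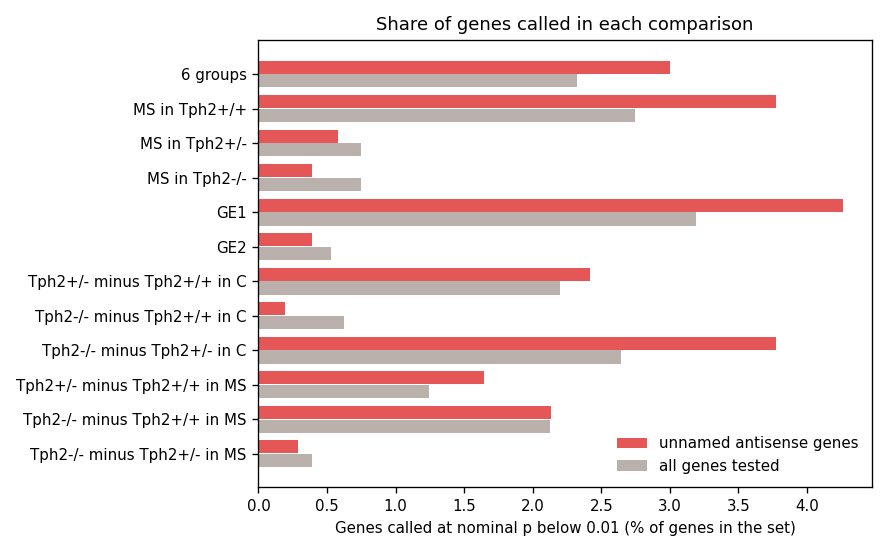
Share of the 1033 unnamed antisense genes (red) and of all 5644 genes tested (grey) called in each comparison, in percent, at nominal p below 0.01 and, except for the 6 groups, an absolute lg2FC above 0.2. In both sets the shares were highest for GE1, at 4.26% and 3.19%, and under 1% for MS in Tph2+/- and Tph2-/- and for GE2.

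For the effect of MS in one genotype, and for the others below, a gene was called a differentially expressed gene (DEG) where its nominal p was below 0.01 and its lg2FC exceeded 0.2 in size. These are thresholds the study used too. In Tph2+/+ mice, 39 of the 1033 genes were DEGs (3.78%) against 2.75% of all genes tested, 31 higher and 8 lower in MS. Among all genes tested 2.18% were higher and 0.567% lower. With an offset for G and C content in the fit the split was 26 higher and 14 lower, without the 7 control mice it was 16 and 8, and without the 6 libraries with the highest slope on G and C content, a property given below, 5 and 3. In Tph2+/- mice 6 were DEGs, 2 higher and 4 lower, with 0.744% of all genes called, 0.319% higher and 0.425% lower. In Tph2-/- mice 4 were DEGs, all higher, with 0.744% of all genes called as well, 0.266% higher and 0.478% lower. With edgeR's test no adjusted p was below 0.05 in any of the 3 genotypes, 108, 41 and 38 of the genes (10.5%, 3.97% and 3.68%) had an unadjusted p below 0.05 beside 7.88%, 3.99% and 4.89% of all genes tested, and DESeq2 gave none either after adjustment.

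Gm26571 (chr12:83945209-83951355, minus strand) had the smallest p for higher levels in Tph2+/+ MS. It lies opposite to Riox1, which encodes a ribosomal oxygenase, and its stretch of exon is printed above. Its CPM in Tph2+/+ C ran from 4.27 with a median of 7.13 to 17.1, and in Tph2+/+ MS from 9.72 with a median of 24.8 to 76.1. In 6 of 8 MS libraries it lay above every C library. The lg2FC was 1.92 ± 0.49 (SE, edgeR, adjusted p = 0.167), and the exact permutation test of log2(CPM + 1), 8 against 8, gave p = 0.0042. Gm26571 was chosen by this comparison, so that p describes the overlap and is no further test. Its raw counts were 3 to 14 in C and 7 to 62 in MS, where 3 counts are 4.06 CPM in a library of median size.

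Gm15354 (chr8:66384623-66387535, minus strand) had the smallest p among those lower in Tph2+/+ MS. It lies opposite to 546 coding bases of March1, which encodes an E3 ubiquitin ligase of antigen-presenting cells. Its CPM ran from 21.04 with a median of 50.6 to 67.7 in C and from 19.3 with a median of 36.2 to 40.3 in MS. The groups overlapped, with 1 MS library below every C library. The lg2FC was -0.58 ± 0.17 (SE, edgeR, adjusted p = 0.204), and the exact permutation p was 0.0359 on log2(CPM + 1) but 0.0622 on raw counts.

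In Tph2+/- mice, Gm44012 (chr6:84921123-84924996, plus strand), which has no opposite exon, had the smallest p for higher levels. Its CPM ran from 10.6 with a median of 14.1 to 18.4 in C and from 11.3 with a median of 20.3 to 30.4 in MS, and 5 of 8 MS libraries lay above every C library. The lg2FC was 0.62 ± 0.20 (SE, edgeR, adjusted p = 0.867; exact permutation p = 0.0148), and without the 7 control mice it was 0.53 and not called. Among those lower the smallest p was that of Gm15564 with an lg2FC of -2.47 (exact permutation p = 0.225), which came to -0.15 without the 4 libraries named above.

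In Tph2-/- mice, Gm29587 (chr12:74222498-74235140, minus strand), opposite to the synaptotagmin gene Syt16, had the smallest p for higher levels. It is well counted, with a mean of 442. Its CPM ran from 479 with a median of 525 to 596 in C and from 528 with a median of 609 to 809 in MS, and 4 of 8 MS libraries lay above every C library. The lg2FC was 0.24 ± 0.07 (SE, edgeR, adjusted p = 0.899; exact permutation p = 0.0177), while on raw counts the exact p was 0.0662. Without the 6 libraries with the highest slope on G and C content, it was not called (lg2FC 0.21). No member passed as lower. The smallest p in that direction was that of Gm26771, opposite to the Wnt antagonist gene Sfrp2, with an lg2FC of -0.70 ± 0.27 (SE, edgeR, adjusted p = 0.899; exact permutation p = 0.011). These 6 exact permutation tests, 1 for each direction and genotype, are two-sided and cannot go below 0.000155. Each gene was chosen by the comparison that was then permuted, so that these p-values describe overlap and are no further test.

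GE1 is the effect of MS in Tph2+/- minus the effect of MS in Tph2+/+, and GE2 the effect of MS in Tph2-/- minus that in Tph2+/+. For GE1, 44 of the 1033 genes were DEGs (4.26%) against 3.19% of all genes tested. Of these, 37 were lower and 7 higher, where 2.64% and 0.549% of all genes were called. Without the 7 control mice, 8 were lower and 8 higher. None had an adjusted p below 0.05 in edgeR, 117 (11.3%) had an unadjusted p below 0.05 beside 8.11% of all genes tested, and DESeq2 gave 1, 2610206C17Rik. For GE2, 4 genes were DEGs, 3 higher and 1 lower, with 0.532% of all genes called (0.248% higher and 0.283% lower), none below 0.05 after adjustment by edgeR or DESeq2 and 34 (3.29%) with an unadjusted p below 0.05, beside 3.37% of all genes tested. The contrasts share the Tph2+/+ groups, so that a gene that differs there enters both and also the MS contrast in Tph2+/+.

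2610206C17Rik (chr7:84689640-84779053, plus strand), which covers the start of the zinc finger gene Zfand6, had the smallest p for GE1. Its CPM ran from 6.23 with a median of 14.8 to 21.04 in Tph2+/+ C and from 9.72 with a median of 22.1 to 41.2 in Tph2+/+ MS. In Tph2+/- C it ran from 14.9 with a median of 21.8 to 37.6 and in Tph2+/- MS from 5.66 with a median of 13.7 to 18.8. It was thus higher in MS in the wildtype and lower in MS in the heterozygous mice, with overlap in both. The lg2FC of GE1 was -1.58 ± 0.36 (SE, edgeR, adjusted p = 0.0902), made of 0.78 ± 0.25 (SE) in Tph2+/+ and -0.80 ± 0.25 (SE) in Tph2+/-.

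Other genes likewise had the higher median with MS in the wildtype and without MS in the heterozygous mice. Gm43137, opposite to Ankle2, which takes part in rebuilding the nuclear envelope, had medians of 6.79 CPM (C) and 16.3 (MS) in wildtype and 19.8 (C) and 6.72 (MS) in heterozygous mice, with single libraries up to 79.5. Its lg2FC of GE1 was -3.31 ± 0.81 (SE). Gm26571 had medians of 27.7 and 14.1 CPM in Tph2+/- C and MS beside the Tph2+/+ values above, and an lg2FC of -2.59 ± 0.64 (SE). 4732440D04Rik, opposite to the autophagy gene Rb1cc1, had -1.83 ± 0.48 (SE), 9430041J12Rik, opposite to the glial membrane protein gene Ttyh1, had -0.76 ± 0.21 (SE), and Gm35065, opposite to the serine protease gene Prss12, had -1.20 ± 0.39 (SE). In edgeR their adjusted p-values were between 0.1 and 0.181.

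**Figure D3:**
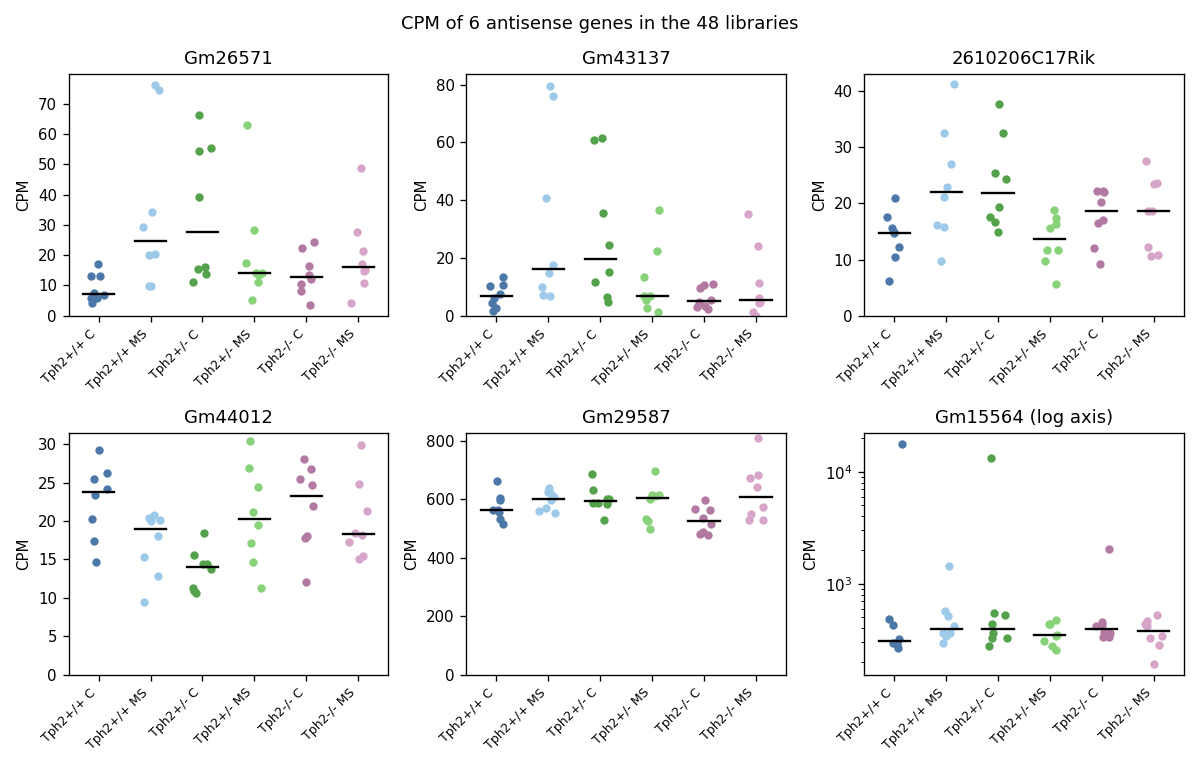
CPM of 6 unnamed antisense genes in the 48 libraries, 8 points per group with the median as a line; the axis of Gm15564 is logarithmic. Gm26571, Gm43137 and 2610206C17Rik have their highest medians in Tph2+/+ MS and Tph2+/- C, and Gm15564 has 4 libraries between 1438 and 17662 CPM.

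Of the 7 genes higher for GE1, 4 had no exon opposite to another gene. Gm44012, which was not called without the 7 control mice, had the smallest p, with medians of 23.8 CPM in Tph2+/+ C and 19.02 in Tph2+/+ MS beside the Tph2+/- values above and an lg2FC of 1.01 ± 0.27 (SE, edgeR, adjusted p = 0.1). Gm13269, opposite to the calcium channel gene Cacnb2, had 0.50 and Gm37753, opposite to the protocadherin gene Pcdha6, had 0.62.

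The DEGs of GE1 were not spread evenly over the kinds of antisense gene. Of the 1033 genes, 190 (18.4%) covered the start of the opposite gene, 357 lay inside it, 196 covered its end, 30 spanned all of it and 260 had no opposite exon. Of the 37 genes lower for GE1, 26 covered the start of the opposite gene, 10 lay inside it and 1 spanned it. None covered an end and none was without an opposite exon. Without the 7 control mice, 6 genes that cover a start were lower and 1 higher, and 2 of those inside were lower and 3 higher. Without the 6 libraries with the highest slope on G and C content, 11 that cover a start and 7 inside were lower. The median lg2FC of GE1 was -0.21 over the genes that cover a start, -0.02 over those inside, 0.02 over those that cover an end and 0.18 over those with no opposite exon, beside 0.00 over all 1033 genes. The genes lower for GE1 also differed in base composition, with a median of 57.4% G and C bases in their exons against 49.01% over all 1033, and 24 of the 37 had at least 55% against 16.7% of all. These features were not used to choose them.

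**Figure D4:**
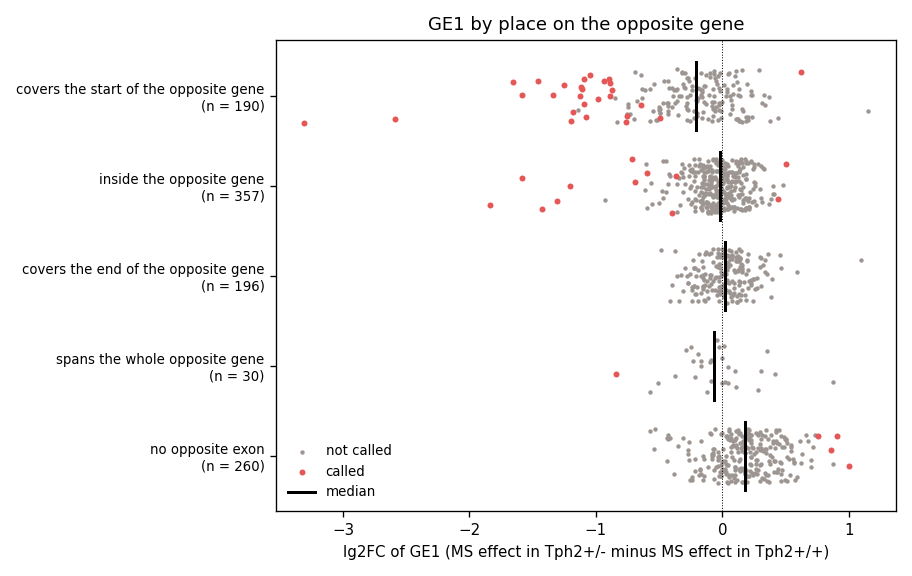
The lg2FC of GE1 of each of the 1033 unnamed antisense genes, in 5 rows by the place of the gene on the opposite gene, with the genes called in red and the median as a black line. The median is -0.21 for genes that cover the start of the opposite gene and 0.18 for genes with no opposite exon.

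The 37 genes moved together from library to library. After the group means were taken out, the median correlation between pairs of them over the 48 libraries was 0.65, and it was 0.00 between pairs of all 1033 genes and 0.16 between the 7 genes higher for GE1. Their mean deviation on the log2(CPM + 1) scale ran from -0.64 with a median of -0.28 to 0.01 in Tph2+/+ C and from -0.56 with a median of 0.22 to 1.13 in Tph2+/+ MS. In Tph2+/- C it ran from -0.36 with a median of 0.24 to 1.02 and in Tph2+/- MS from -0.42 with a median of -0.07 to 0.77. The highest libraries were replicates 7 and 8 of Tph2+/+ MS, replicates 7 and 4 of Tph2+/- C and replicate 8 of Tph2+/- MS.

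Properties of the whole library moved with these genes. The rank correlation of each library's levels with the G and C content of the exons, taken over the other genes tested, ran from -0.38 to 0.56 over the libraries, and it had a Spearman's rank correlation of 0.68 with the mean deviation of the 37 genes over the 48 libraries, which share depth and normalization. The group medians of this slope were -0.12 (C) and 0.03 (MS) in wildtype and 0.08 (C) and -0.08 (MS) in heterozygous mice. Over these groups, by which GE1 chose the 37 genes, the medians of the 37 genes had the same order. With the Tph2-/- groups the orders differed. The slope was lowest in Tph2-/- C (-0.19), and the 37 genes were lowest in Tph2+/+ C (-0.281), then in Tph2-/- C (-0.275). The slope itself had a rank correlation of 0.79 over the 48 libraries with the percent of alignments that were not unique, which was 15.1% and 16.1% in replicates 7 and 8 of Tph2+/+ MS and 15.7% in replicate 8 of Tph2+/- MS, beside group medians of 12.1% to 12.7%. Other libraries went the other way. Replicate 4 of Tph2-/- MS had 15.8% and a mean deviation of the 37 genes of -0.06, and replicate 7 of Tph2+/- C had 12.6% and 1.02. The part of these properties in the result was not tested beyond the fits that follow. Without the 6 libraries with the highest slope, which belong to 4 groups, 24 of the 1033 genes were DEGs for GE1, 21 of them among the 44, and 8 were DEGs for MS in Tph2+/+ in place of 39. With an offset for G and C content in the fit, 40 were DEGs for GE1. The median lg2FC of GE1 over the genes that cover a start was -0.16 in either case.

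**Figure D5:**
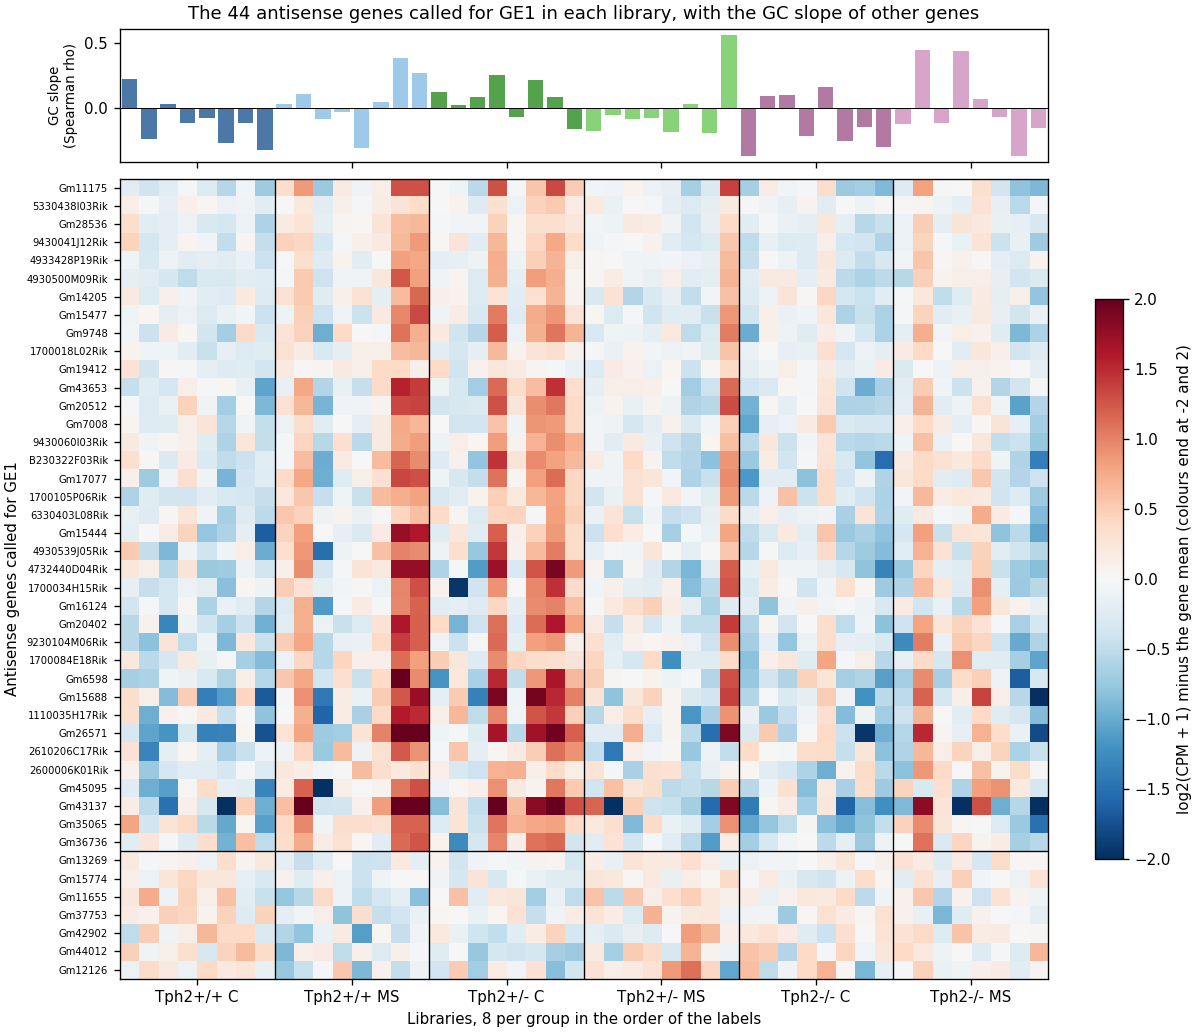
Levels of the 44 unnamed antisense genes called for GE1 in the 48 libraries, as log2(CPM + 1) minus the mean of the gene, 37 lower genes above the horizontal line and 7 higher genes below it, with the G and C slope of the other genes tested as bars on top. The lower genes are high together in a few libraries, replicates 7 and 8 of Tph2+/+ MS and replicates 4 and 7 of Tph2+/- C among them.

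For GE2, Gm13179 (chr2:4586024-4587287, minus strand), opposite to 641 bases of the scaffold gene Frmd4a of which 134 are coding, had the smallest p for higher values. Its CPM ran from 63.1 with a median of 85.1 to 96.3 in Tph2+/+ C and from 64.8 with a median of 73.96 to 84.8 in Tph2+/+ MS. In Tph2-/- C it ran from 55.7 with a median of 76 to 87.9 and in Tph2-/- MS from 65.0 with a median of 94.3 to 106.1. All 4 groups overlapped. The lg2FC of GE2 was 0.43 ± 0.15 (SE, edgeR, adjusted p = 0.99985), from -0.17 ± 0.11 (SE) in Tph2+/+ and 0.26 ± 0.10 (SE) in Tph2-/-. It was not called without the 6 libraries with the highest slope on G and C content (lg2FC 0.38) nor without the 7 control mice (lg2FC 0.43). Frmd4a itself had a mean of 6.31 counts.

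Gm13716 (chr2:85196932-85198675, plus strand), opposite to Lrrc55, which encodes an auxiliary subunit of BK potassium channels, was the 1 gene lower for GE2. Its CPM had medians of 40.7 (C) and 60.3 (MS) in wildtype and 46.8 (C) and 39.7 (MS) in null mutant mice, and reached 97.2 in wildtype MS. The lg2FC was -0.71 ± 0.23 (SE, edgeR, adjusted p = 0.99985), of which 0.57 ± 0.16 (SE) was the MS effect in Tph2+/+ and -0.14 ± 0.17 (SE) that in Tph2-/-. Without the 4 libraries with most counts on Gm42418 it was not called (lg2FC -0.61).

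Between genotypes within a rearing condition, calls were again uneven. In C, 25 of the 1033 genes were DEGs in Tph2+/- against Tph2+/+, 22 of them higher, with 2.2% of all genes called and 1.77% higher. In Tph2-/- against Tph2+/- in C, 39 were DEGs, 37 of them lower and 2 higher, with 2.64% of all genes called, 2.2% lower and 0.443% higher, and 26 of the 37 covered the start of the opposite gene. Across the 1033 genes, the lg2FC and the G and C content of the exons had a rank correlation of 0.38 in the first and -0.40 in the second of these comparisons, and the group medians of the G and C slope were -0.12, 0.08 and -0.19 in C for Tph2+/+, Tph2+/- and Tph2-/-. With the offset for G and C content 21 and 35 genes were called, and without the 6 libraries with the highest slope 27 and 36. Of these 6 libraries 1 belongs to Tph2+/- C, 0 to Tph2+/+ C and 0 to Tph2-/- C. Leaving them out therefore says little about the slope in these comparisons. In Tph2-/- against Tph2+/+ in C, 2 were DEGs, with 0.62% of all genes called, namely Gm11659 and Gm15564, the latter resting on single libraries. These comparisons share their control groups with each other and with the MS contrasts. Without the 7 control mice with the highest animal numbers, the first of these counts was 4 and the second 7, and GE1 had 16 DEGs.

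In MS, 17 genes were DEGs in Tph2+/- against Tph2+/+ (11 lower) with 1.24% of all genes called and 0.673% lower, 22 in Tph2-/- against Tph2+/+ (13 higher, 9 lower) with 2.13%, 0.85% higher and 1.28% lower, and 3 in Tph2-/- against Tph2+/- with 0.39%. In no genotype comparison did any of the 1033 genes have an adjusted p below 0.05 in edgeR or DESeq2. In C, an unadjusted p below 0.05 was found in 6.58% of the 1033 genes for Tph2+/- against Tph2+/+ (6.93% of all genes tested), in 1.94% for Tph2-/- against Tph2+/+ (3.26%) and in 9.97% for Tph2-/- against Tph2+/- (7.99%). In MS the same pairs gave 6.20% (5.6%), 9.20% (7.41%) and 2.42% (3.08%). 0610038B21Rik, opposite to Arhgap10, is an example of the first 2 comparisons in C. Its CPM had medians of 17.5 in Tph2+/+ C, 31.8 in Tph2+/- C and 16.6 in Tph2-/- C, with lg2FC values of 0.69 ± 0.21 (SE) in Tph2+/- against Tph2+/+ and -0.82 ± 0.21 (SE) in Tph2-/- against Tph2+/- (edgeR, adjusted p = 0.341 and 0.2).

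By class of the opposite gene, the 3 MS contrasts, GE1 and GE2 called between 0 and 3 genes per class, where 2.75% and 3.19% of all genes tested were called for MS in Tph2+/+ and GE1. Opposite to solute carriers and ATPases, 3 of 25 were lower for GE1 (Gm14205, Gm15477 and 1700034H15Rik), and opposite to genes of cytoskeleton and adhesion, 3 of 28 were called for GE1, 4933428P19Rik and Gm9748 lower and Gm37753 higher. Opposite to genes of synapse and membrane traffic, 1 of 23 was higher in MS in Tph2+/+ (Gm43653, opposite to Ap1ar), 1 was higher in Tph2-/- (Gm29587) and 1 was lower for GE1 (Gm43653). Opposite to ion channels and neurotransmitter receptors, Gm13269 alone of 26 was called in these 5 contrasts, lower for MS in Tph2+/+ and higher for GE1. Opposite to transcription factors, Gm11175 (Jund) and Gm20402 (Foxo1) of 37 were higher in MS in Tph2+/+ and lower for GE1, and Gm26826 (Foxj2) was higher for GE2. Opposite to genes of chromatin and RNA processing, none of 20 was called in the 3 MS contrasts, GE1 or GE2. The medians of the lg2FC of MS in Tph2+/+ over the classes lay between -0.04 and 0.04, around the -0.01 of all 1033 genes.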

How the data were processed

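Amygdala RNA of 48 mice, 8 per group, had been made into stranded total RNA libraries and read as pairs. Per the labels, the authors' processing used STAR, HTSeq and DESeq2 with GRCm38.p5, with no versions, and the authors deposited raw gene counts for 48 libraries in 1 table. Its special rows, among them reads assigned to no gene, were left out of library sizes. No column was left unused. Genes were matched by identifier to GENCODE M21 (48058 of 48440), which gave type, strand and exons. Genes with a mean of at least 10 counts were tested, Lars2 left out as in the study: 5644 genes, with a TMM-scaled library of 380189 to 939959 counts. Tests were edgeR quasi-likelihood tests over all 48 libraries with 1 coefficient per group (edgeR 4.0.16, R 4.3.3), Benjamini-Hochberg adjusted over all genes tested. An alternative used DESeq2 1.42.0. The scripts were tested on simulated data.

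CPM are TMM-scaled, and permutations used log2(CPM + 1). Genes named were the 8 highest per kb, the 8 with the smallest p over the 6 groups, the smallest p in each direction for the 3 MS contrasts, GE1 and GE2, Gm13179, the 4 with most opposite bases, the 4 highest with no opposite exon, and those at the limit. Other genes named as pairs, class members or GE1 examples were chosen after their values were seen. The genes described and the lists were chosen with earlier results of these data known. Replicate numbers were not taken to pair the libraries. Deviations of the 120 same-numbered pairs had a median correlation of 0.04 (-0.64 to 0.65), beside 0.003 for pairs with other numbers. The correlation was over 0.1 in 46 of the 120, and the share for other numbers was not counted.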

Additional observations from a re-analysis of the deposited data

Results flagged for a closer look

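Single libraries stood apart from the other 7 of their group in 9 of the 90 sets of 8 values examined, over the 15 genes named for a difference between groups or in a contrast. Chance gives about 5%, or 1 in 20 groups, for independent sets of normally distributed values. These sets are not independent, since 4 of the 9 are of Gm15564 and 3 are of 1 library, so that the shares cannot be compared. Gm15564 had 17660 CPM in replicate 1 of Tph2+/+ C against a group median of 305.4, 1438 in replicate 2 of Tph2+/+ MS against 391.9, 13350 in replicate 2 of Tph2+/- C against 397.4 and 2038 in replicate 1 of Tph2-/- C against 391.8. In these 4 libraries Gm42418 exceeded 500000 counts. Replicate 8 of Tph2+/- MS was highest for 3 genes that covary, with 499.1 CPM for 9430041J12Rik (median 330.4), 99.61 for 4732440D04Rik (median 35.79) and 63.2 for Gm26571 (median 14.13). It also had the highest G and C slope of the 48 libraries (0.56). Gm35065 had 13.73 CPM in replicate 4 of Tph2-/- C against a median of 7.229, and 0610038B21Rik had 39.64 in replicate 5 of Tph2-/- MS against 24.69.

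The effect of MS differed between genotypes, by the interaction contrast itself, in 44 genes for GE1 (4.26%, beside 3.19% of all genes tested) and in 4 for GE2 (0.387%, beside 0.532%) at nominal p below 0.01, and in none after adjustment with edgeR. The 44 include the 37 whose mean deviation had a rank correlation of 0.68 with the G and C slope of the libraries. The part of that slope in the result was not tested beyond the fits given above.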

How the results depend on the processing

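Of 132 counts of called genes under the alternatives, 31 moved by over 1.5 times. Without a filter on low counts, 74 genes were called over the 6 groups, 30 for MS in Tph2+/-, 14 for MS in Tph2-/-, 20 for GE2, 44, 6 and 59 in C for Tph2+/- against Tph2+/+, Tph2-/- against Tph2+/+ and Tph2-/- against Tph2+/-, and 36, 58 and 5 for the same pairs in MS. Without the 7 controls, the counts were 6 over the 6 groups, 24, 3 and 9 for MS in Tph2+/+, Tph2+/- and Tph2-/-, 16 for GE1, and 4, 4 and 7 for the pairs in C. Without the 6 libraries with the highest G and C slope, chosen after seeing the data, they were 19 over the 6 groups, 8 for MS in Tph2+/+, 19 for MS in Tph2+/- and 24 for GE1. Without the 4 libraries with most Gm42418 counts, they were 2 for GE2, 38 and 1 for Tph2+/- and Tph2-/- against Tph2+/+ in C, and 9 for Tph2+/- against Tph2+/+ in MS. The count for Tph2-/- against Tph2+/+ in C was 1 with DESeq2 and 1 with robust edgeR, that for MS in Tph2-/- was 9 with filterByExpr, and that for Tph2-/- against Tph2+/- in MS was 1 with the G and C offset, also added after seeing the data. The cause was not tested. Of 205 values of single genes, 180 kept their side of the threshold, 20 lost and 5 gained a call, and none changed direction. Without the 7 controls, 8 lost it: Gm44012 for MS in Tph2+/- and for GE1, Gm13179 for GE2, and Gm35065, 9430041J12Rik, 4732440D04Rik, Gm26571 and 0610038B21Rik over the 6 groups. Gm15564 lost its calls over the 6 groups and for MS in Tph2+/- with DESeq2 and with the replicate block, and Gm13179 lost its call without the filter. The calls of Gm15564 for MS in Tph2+/+ and for Tph2-/- against Tph2+/+ in C were not among the values followed. The 5 gains were all Gm26771 for MS in Tph2-/-.

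With the replicate number as a block, 7 genes were called for MS in Tph2-/-, and the other counts stayed within 1.5 times. The numbers were not taken to pair the mice, as same-numbered libraries had a median correlation of deviations of 0.04, beside 0.003 for other numbers. Genes near 10 counts are limited by depth, as 3 counts are 4.06 CPM in a library of median size.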
